A study of Mus musculus with 9 samples.

Results

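The genes described here are 9 markers of neural and glial lineages: Gfap, Aqp4, Lgi2, Nes, Ngfr, Sox2, Sox10, S100b and Tubb3. They were measured in cultures of mouse embryonic fibroblasts (MEFs), primary cells grown from a minced embryo, that differ in the number of working copies of Oga. The Oga product, O-GlcNAcase, takes O-linked N-acetylglucosamine off nuclear and cytoplasmic proteins. Every probe set annotated to these symbols was taken, which gave 21 probe sets of the 45037 on the array, or 9 genes of the 18193 with a probe set of their own. Gfap, Aqp4, Lgi2, Nes and Ngfr were selected on their measured differences between the KO line and the other lines, and those differences are given as a description, without a test.

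The 9 arrays came from 3 lines, each cultured in DMEM from a female embryo of stage E12.5: a KO line with both Oga copies deleted, a Het line with 1 deleted copy and a WT line with none. The deletion came from a cross of floxed Oga males, labelled as of C57B1/6 background, to MMTV-Cre females, labelled B6129-Tgn(MMTV-Cre)1Mam, whose Cre recombinase is driven by a mouse mammary tumour virus promoter. Heterozygous offspring were bred with each other to give embryos of all 3 genotypes. Each genotype is represented by 1 line measured on 3 technical replicate arrays. The p-values below therefore measure the spread between arrays of a line, and genotype and line cannot be told apart. The most abundant Oga probe set read 6.06 ± 0.026 in the KO line, 11.16 on each Het array and 11.92 ± 0.033 in the WT line (log2, SD, n = 3 arrays). The 10 fibroblast markers listed (collagens, matrix proteins and surface receptors) had means from 10.40 to 15.08 in KO, 10.68 to 15.12 in Het and 10.23 to 15.13 in WT, so markers of the labelled cell type were read in all 3 lines.

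Gfap, the intermediate filament protein of astrocytes, and Aqp4, the water channel of their end-feet, are standard markers of mature astroglia, and Gfap is also made by non-myelinating Schwann cells. Lgi2 belongs to the secreted leucine-rich LGI proteins, which bind receptors of the ADAM family at synapses and on glia. Nes encodes nestin, a filament protein of neural stem cells that is also made by muscle precursors and pericytes, and Ngfr encodes the low-affinity neurotrophin receptor found on neural crest cells, Schwann cells and some mesenchymal cells. Sox2 and Sox10 are transcription factors, Sox2 of neural stem cells and Sox10 of the neural crest and its glia. S100b is a calcium-binding protein of astrocytes and Schwann cells, and Tubb3 is the beta-tubulin used as a marker of neurons.

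The 250 bases before the start site are shown for Gfap, Lgi2, Nes and Ngfr, because these genes moved in opposite directions in the KO line. The sequences are from RefSeq, build GRCm38.p6, and are written along the gene's strand: Gfap from chr11:102897201-102897450 on the minus strand, Lgi2 from chr5:52566307-52566556 on the minus strand, Nes from chr3:87970843-87971092 on the plus strand and Ngfr from chr11:95587699-95587948 on the minus strand. Capitals mark the GC box GGGCGG, read on either strand.
Gfap: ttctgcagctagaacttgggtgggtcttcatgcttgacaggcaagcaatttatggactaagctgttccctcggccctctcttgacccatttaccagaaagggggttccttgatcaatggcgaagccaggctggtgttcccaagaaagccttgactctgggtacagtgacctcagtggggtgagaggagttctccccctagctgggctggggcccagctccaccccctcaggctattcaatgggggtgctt
Lgi2: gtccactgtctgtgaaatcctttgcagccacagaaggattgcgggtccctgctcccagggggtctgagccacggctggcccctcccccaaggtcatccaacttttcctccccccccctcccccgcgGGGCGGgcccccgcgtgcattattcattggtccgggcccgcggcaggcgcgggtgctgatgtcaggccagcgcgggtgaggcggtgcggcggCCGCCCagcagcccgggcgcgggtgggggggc
Nes: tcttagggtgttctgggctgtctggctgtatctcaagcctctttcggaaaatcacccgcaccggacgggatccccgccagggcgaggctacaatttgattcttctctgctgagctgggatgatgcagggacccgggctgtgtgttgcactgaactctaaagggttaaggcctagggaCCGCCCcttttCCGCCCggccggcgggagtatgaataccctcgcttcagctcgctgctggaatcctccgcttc
Ngfr: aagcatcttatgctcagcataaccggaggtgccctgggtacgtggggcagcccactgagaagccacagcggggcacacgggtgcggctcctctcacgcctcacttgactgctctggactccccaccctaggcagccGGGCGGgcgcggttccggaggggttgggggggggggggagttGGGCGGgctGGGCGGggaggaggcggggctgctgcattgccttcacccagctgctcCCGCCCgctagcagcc
The Gfap stretch held 0 GC boxes and was 55.6% G and C. Lgi2 held 2 and was 72.4% G and C, Nes held 2 and was 58.8%, and Ngfr held 4 and was 70.4%, beside a median of 52.4% and a share of 32.7% with at least 1 GC box over the 32851 promoters of the table. Of the other 3 genes with a promoter in the table, Sox2 and Tubb3 held 2 GC boxes each and S100b held 0.

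The other motifs searched on both strands were the SOX motif ACAANG, the STAT motif TTCNNNGAA, the AP-1 motif TGANTCA, the E-box CANNTG and the TATA box TATAAA. Of the 7 genes searched, the SOX motif had 2 matches before Tubb3, 1 before Sox2 and 1 before S100b, and it occurs in 36.3% of all promoters. The E-box had 2 matches before Ngfr and 1 before S100b, and occurs in 66.2% of all promoters. The STAT, AP-1 and TATA letters had 0 matches in the 7 windows, and are found in 7.02%, 6.75% and 12.4% of all promoters.

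Gfap, Aqp4 and Lgi2 were lower in the KO line than in both other lines. Of their 8 probe sets, 7 read at least 2-fold lower in KO than in WT, beside 1.21% of all probe sets called lower, and the remaining one, 1447745_at of Aqp4, read 1.52-fold lower. On all 8 the 3 KO arrays lay below the 3 Het arrays and the 3 WT arrays, where 39.5% of all probe sets did not overlap between KO and Het and 40.7% between KO and WT. In bulk cultures, fewer cells of a type and less RNA per cell cannot be told apart.

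Gfap probe set 1426508_at read 6.98, 7.17 and 7.47 on the KO arrays, 8.48, 8.53 and 8.64 on the Het arrays and 9.18, 9.09 and 8.99 on the WT arrays (deposited log2 values). The lines did not overlap and stood in the order KO, Het, WT from low to high. The KO line was 3.68-fold below WT (log2 difference -1.88, SE 0.11) and 2.54-fold below Het (-1.34). A second probe set, 1426509_s_at, gave 6.01, 6.19 and 6.00 in KO, 7.70, 7.76 and 7.91 in Het and 8.27, 8.19 and 8.23 in WT, a KO minus WT difference of -2.17. The third, 1440142_s_at, read 4.94, 5.04 and 5.25 in KO, 6.48, 6.57 and 6.52 in Het and 6.66, 6.85 and 6.75 in WT, a difference of -1.67. The 3 Gfap probe sets thus gave the same order of lines, and Het lay nearest to WT on 1440142_s_at, with a difference of -0.23. In KO the means of 1426509_s_at (6.06) and 1440142_s_at (5.08) lay in the lowest 40% of probe set means, below 6.23. Such low KO values limit how far the sizes of their differences can be read. Their SEs, 0.07 and 0.08, were nevertheless below the 0.11 of 1426508_at.

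Aqp4 probe set 1434449_at had the largest KO minus WT difference of the 21 probe sets, while averaged over a gene's probe sets Lgi2 had the largest. The probe set read 5.30, 5.35 and 5.53 on the KO arrays, 7.77, 7.89 and 7.80 on the Het arrays and 8.53, 8.30 and 8.43 on the WT arrays. The KO arrays were 8.14-fold below WT (-3.03, SE 0.08) and 5.38-fold below Het (-2.43), and their mean of 5.39 lay in the lowest 40% of probe set means, below 6.23. Probe set 1425382_a_at read 5.36, 5.58 and 5.70 in KO, 7.38, 7.46 and 7.46 in Het and 8.17, 8.35 and 8.15 in WT, a KO minus WT difference of -2.68. The dimmest, 1447745_at, read 6.04, 5.78 and 5.83 in KO, 6.25, 6.39 and 6.26 in Het and 6.64, 6.35 and 6.48 in WT, a difference of -0.61, and its Het and WT arrays overlapped. Y-linked genes, which a female line lacks, read between 3.57 and 4.73 over 9 probe sets. The KO values of Aqp4 lay nearer to that range than its Het and WT values, which limits how far the size of the difference can be read.

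Lgi2 probe set 1440147_at read 6.90, 6.63 and 6.71 in KO, 8.66, 8.56 and 8.56 in Het and 9.36, 9.45 and 9.44 in WT. No line overlapped another. The KO line was 6.36-fold below WT (-2.67, SE 0.07) and 3.58-fold below Het (-1.84). Its second probe set, 1457040_at, repeated the order with 6.20, 6.10 and 6.27 in KO, 7.60, 7.49 and 7.60 in Het and 8.26, 8.17 and 8.21 in WT, a KO minus WT difference of -2.03. The KO mean of 1457040_at, 6.19, lay just below the limit of 6.23 for the lowest 40%.

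Nes and Ngfr were higher in the KO line, with KO minus WT differences from 0.47 to 1.24 over their 6 probe sets. On all 6 the KO arrays lay above the Het arrays and above the WT arrays, beside 39.5% and 40.7% of all probe sets without overlap in either direction. The 3 Nes probe sets and 1 of the 3 Ngfr probe sets were at least 2-fold higher in KO than in WT, beside 0.646% of all probe sets called higher.

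Nes probe set 1449022_at read 12.07, 12.00 and 11.97 in KO, 11.46, 11.49 and 11.49 in Het and 10.68, 10.79 and 10.88 in WT. Here the order of the lines was the reverse of that of Gfap, with KO 2.35-fold above WT (1.24, SE 0.06) and 1.45-fold above Het (0.54). Probe set 1418289_at read 9.72, 9.53 and 9.66 in KO, 9.24, 9.18 and 9.09 in Het and 8.57, 8.28 and 8.63 in WT, a KO minus WT difference of 1.14. Probe set 1453997_a_at read 8.05, 7.70 and 7.48 in KO, 6.88, 6.84 and 6.87 in Het and 6.57, 6.56 and 6.48 in WT, a difference of 1.21. Its KO arrays spread more widely than those of the other Nes probe sets, with an SD of 0.29 against 0.05 for 1449022_at.

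Ngfr probe set 1454903_at read 10.12, 10.08 and 10.08 in KO, 9.61, 9.68 and 9.71 in Het and 9.02, 9.05 and 9.02 in WT. The 3 lines were separate, with KO 2.09-fold above WT (1.06, SE 0.05) and 1.34-fold above Het (0.42). Probe set 1450177_at read 7.62, 7.64 and 7.62 in KO, 7.26, 7.26 and 7.49 in Het and 7.07, 6.91 and 7.00 in WT, a KO minus WT difference of 0.64. Probe set 1421241_at read 6.56, 6.26 and 6.38 in KO, 5.96, 5.93 and 5.97 in Het and 5.95, 6.08 and 5.76 in WT, a difference of 0.47. Averaged over its 3 probe sets the KO minus WT difference of Ngfr was 0.72, under 2-fold, while the averages of Gfap, Aqp4, Lgi2 and Nes were -1.91, -2.10, -2.35 and 1.20.

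**Figure D1:**
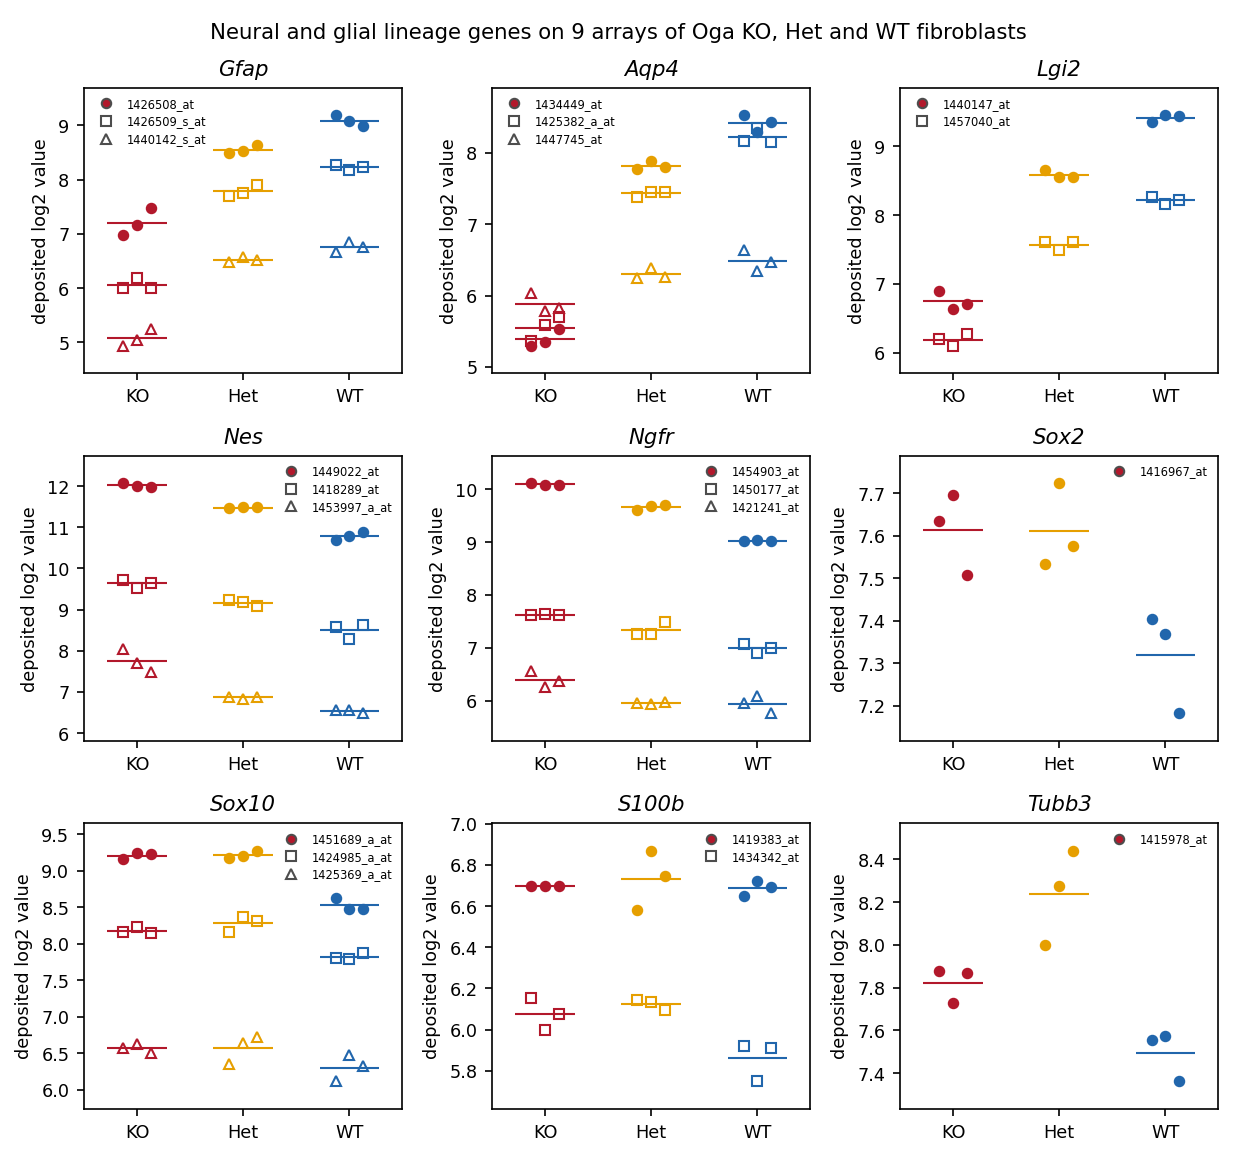
Deposited log2 values of the 21 probe sets of the 9 genes on each array of the KO, Het and WT lines. Points are arrays, marker shapes are probe sets, horizontal bars are means of 3 arrays, and the vertical scale differs between panels. The KO arrays are lowest for Gfap, Aqp4 and Lgi2 and highest for Nes and Ngfr, and for Sox10 the KO and Het arrays lie together above WT on 2 of 3 probe sets.

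The transcription factors Sox2 and Sox10 were both higher in KO than in WT, and for neither did KO and Het differ past the test. Sox10 probe set 1451689_a_at read 9.16, 9.24 and 9.22 in KO, 9.17, 9.20 and 9.27 in Het and 8.63, 8.48 and 8.48 in WT. The KO and Het arrays overlapped and all 6 lay above the WT arrays. Sox10 rose 1.60-fold in KO against WT (0.68, SE 0.06, limma adjusted p = 7.8e-06), and the KO minus Het difference was -0.01 (SE 0.06, limma adjusted p = 0.931). Probe set 1424985_a_at, with 8.16, 8.23 and 8.15 in KO, 8.16, 8.36 and 8.31 in Het and 7.80, 7.80 and 7.87 in WT, gave a KO minus WT difference of 0.36 (limma adjusted p = 0.00112). The dimmest probe set, 1425369_a_at, read 6.57, 6.63 and 6.51 in KO, 6.35, 6.65 and 6.73 in Het and 6.12, 6.48 and 6.32 in WT. Its KO minus WT difference of 0.26 had the same sign and did not pass the test (limma adjusted p = 0.0968).

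Sox2 probe set 1416967_at read 7.64, 7.70 and 7.51 in KO, 7.53, 7.72 and 7.58 in Het and 7.40, 7.37 and 7.18 in WT. All KO and Het arrays lay above the highest WT array, and the KO and Het arrays overlapped. The KO minus WT difference was 0.29 (SE 0.08, limma adjusted p = 0.0158) and the KO minus Het difference was 0.0018 (SE 0.08, limma adjusted p = 0.992).

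S100b, a marker of differentiated glia, did not move with Gfap or Aqp4. Its probe set 1419383_at held the same value, 6.70, on all 3 KO arrays, and read 6.58, 6.87 and 6.74 in Het and 6.65, 6.72 and 6.69 in WT. The lines overlapped, and the KO minus WT difference was 0.01 (SE 0.07, limma adjusted p = 0.927). Exactly equal values on all 3 arrays of the KO line were held by 285 of the 45037 probe sets, so the SD of 0 for S100b in KO is not a measure of its precision. The dimmer probe set 1434342_at read 6.15, 6.00 and 6.07 in KO, 6.14, 6.14 and 6.09 in Het and 5.92, 5.75 and 5.91 in WT, a KO minus WT difference of 0.22 (limma adjusted p = 0.0231), and its mean was among the lowest 40%. The probe sets of S100b thus differed in whether a rise was seen.

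Tubb3 was highest in the Het line. Probe set 1415978_at read 7.88, 7.73 and 7.87 in KO, 7.998, 8.28 and 8.44 in Het and 7.56, 7.57 and 7.36 in WT, with no overlap between the lines. The KO line was above WT by 0.33 (SE 0.10, limma adjusted p = 0.0384) and below Het by a difference of -0.41 (SE 0.10, limma adjusted p = 0.0135). The Het arrays spread more widely, with an SD of 0.22 against 0.08 in KO and 0.12 in WT.

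Over the 21 probe sets, 11 differed at least 2-fold with a limma adjusted p below 0.05 between KO and WT, 4 higher and 7 lower, beside 1.86% of all probe sets. Between KO and Het 7 did, all lower, beside 1.05% in either direction and 0.637% lower. These counts come from the genes chosen for their differences in KO and are given as a description. Of the 7 probe sets of Sox2, Sox10, S100b and Tubb3, which were not chosen in that way, 0 reached 2-fold with limma, and 5 passed the adjusted p alone in KO against WT, all higher, beside 28.9% of all probe sets in either direction and 14.2% higher (6 of 7 at an unadjusted p below 0.05). Sox2, Sox10, S100b and Tubb3 were also proposed with earlier results of these data known. Arrays of KO and WT did not overlap on 20 of the 21 probe sets, 14 of which belong to the 5 selected genes, beside 40.7% of all probe sets. By mean over the 9 arrays, 17 of the 21 lay above the lowest 40%, and the brightest probe set of each of the 9 genes did.

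The Het line, with 1 deleted Oga copy, was compared with WT for all 9 genes. This comparison shares the WT arrays with that of KO and WT. Gfap, Aqp4, Lgi2, Nes and Ngfr were selected partly on those WT values, so their Het minus WT tests are not independent of the selection. No probe set of the 21 reached 2-fold between Het and WT with limma, beside 0.246% of all probe sets, and 15 passed the adjusted p alone, beside 21% (18 at an unadjusted p below 0.05). Of these 15, 6 were lower in Het, beside 10.9% of all probe sets, and 9 were higher, beside 10.1%. The lower ones belonged to Gfap, Aqp4 and Lgi2 and the higher ones to the other 6 genes. Among the selected genes, 6 of the 8 probe sets of Gfap, Aqp4 and Lgi2 and 4 of the 6 of Nes and Ngfr passed. Of the 7 probe sets of Sox2, Sox10, S100b and Tubb3, 5 passed.

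Lgi2 fell 1.77-fold in Het (-0.83, SE 0.07, limma adjusted p = 4.3e-05) on 1440147_at and 1.57-fold on 1457040_at (-0.65). Aqp4 fell 1.51-fold on 1434449_at (-0.60, SE 0.08, limma adjusted p = 4.6e-04) and 1.73-fold on 1425382_a_at (-0.79), while 1447745_at differed by -0.19 with a limma adjusted p of 0.159. Gfap fell 1.45-fold on 1426508_at (-0.54, SE 0.11, limma adjusted p = 0.0060) and by a difference of -0.44 on 1426509_s_at, while 1440142_s_at differed by -0.23 with a limma adjusted p of 0.0664. All 3 Het arrays lay below all 3 WT arrays on 7 of the 8 probe sets of the 3 genes, the exception being 1447745_at, while 36.8% of all probe sets did not overlap between Het and WT.

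Nes rose 1.62-fold in Het on 1449022_at (0.70, SE 0.06, limma adjusted p = 3.8e-05) and 1.60-fold on 1418289_at (0.68), and 1453997_a_at differed by 0.33 with a limma adjusted p of 0.0651. Ngfr rose 1.56-fold on 1454903_at (0.64, SE 0.05, limma adjusted p = 1.7e-05) and by 0.35 on 1450177_at, while 1421241_at differed by 0.02 (limma adjusted p = 0.886). Sox10 rose 1.61-fold on 1451689_a_at (0.69, SE 0.06, limma adjusted p = 3.8e-05) and by 0.46 on 1424985_a_at, and 1425369_a_at differed by 0.27 with a limma adjusted p of 0.106. Tubb3 rose 1.67-fold (0.74, SE 0.10, limma adjusted p = 8.1e-04) and Sox2 1.23-fold (0.29, SE 0.08, limma adjusted p = 0.0229). S100b differed by 0.04 on 1419383_at (limma adjusted p = 0.696) and rose by 0.26 on 1434342_at (limma adjusted p = 0.0123). Thus 5 genes rose and 3 fell in Het on their brightest probe set, and S100b did neither.

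The control probe sets that compare the 3' and 5' ends of the actin transcript, a sign of RNA quality, differed by 0.07 ± 0.019 in KO, 0.11 ± 0.015 in Het and 0.07 ± 0.011 in WT (log2, SD, n = 3 arrays). Those of GAPDH gave -0.07 ± 0.032 in KO, -0.0020 ± 0.0059 in Het and -0.08 ± 0.0097 in WT. The Het line thus stood apart from the other 2 on both controls, and the part of this in the Het differences was not tested.

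**Figure D2:**
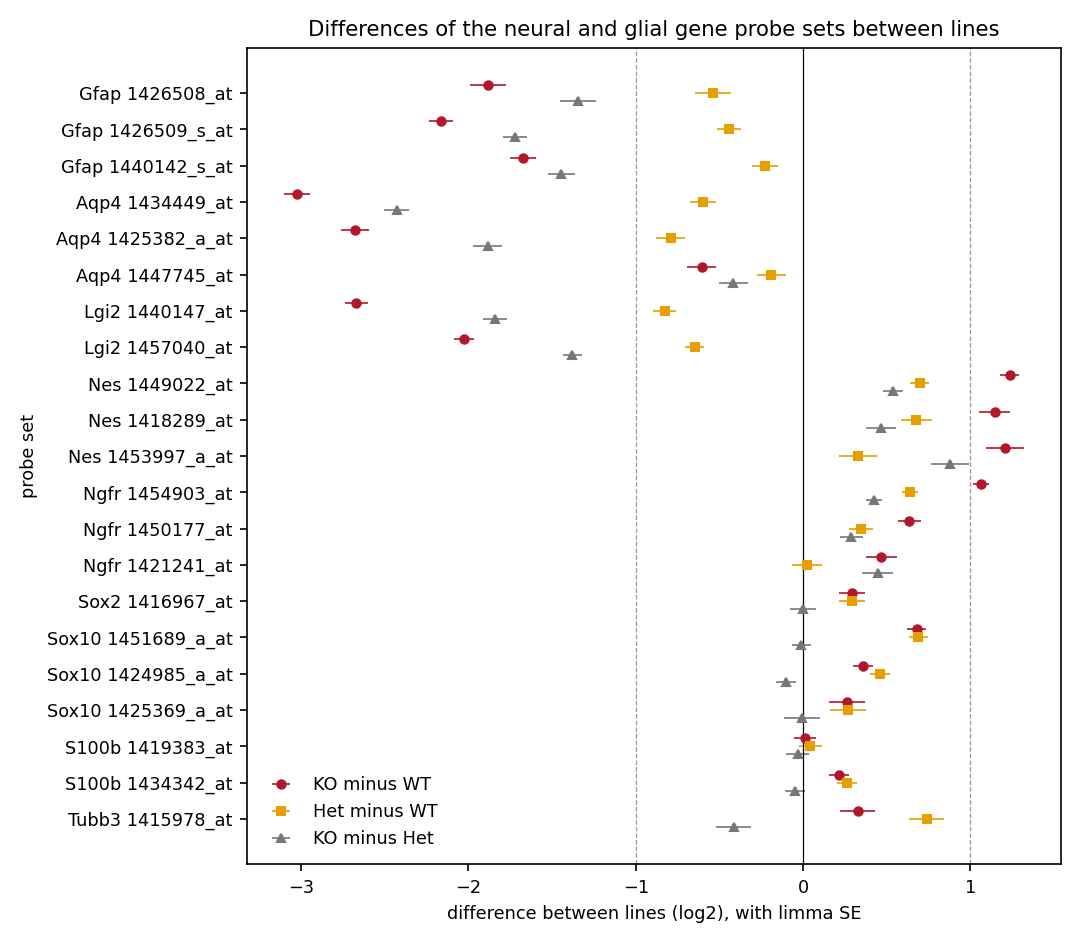
Differences between lines for each of the 21 probe sets on the log2 scale, KO minus WT, Het minus WT and KO minus Het, with limma standard errors. Dashed lines mark 2-fold. The Het minus WT points all lie within 2-fold, and for Gfap, Aqp4 and Lgi2 they lie nearer to 0 than the KO minus Het points, while for Sox10 the KO minus WT and Het minus WT points nearly coincide.

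The place of the Het line between the other 2 differed among the genes. All arrays of the 3 lines were separate and in the order KO, Het, WT from low to high on 7 probe sets and from high to low on 5, or 12 of 21, beside 7.29% of all probe sets. The 7 were all of the Gfap, Aqp4 and Lgi2 probe sets but 1447745_at, and the 5 were the 3 of Nes and 2 of Ngfr. All 12 thus belonged to genes selected on their differences in KO, so this count is a description. No probe set of Sox2, Sox10, S100b or Tubb3 showed either order. On the brightest probe sets the Het minus WT difference came to 19.7% of the KO minus WT difference for Aqp4, 28.5% for Gfap and 31.0% for Lgi2, against 56.5% for Nes and 60.1% for Ngfr. The dimmer probe sets gave 29.6% and 31.3% for Aqp4, 20.4% and 13.7% for Gfap and 32.0% for Lgi2. For Nes they gave 59.2% on 1418289_at and 27.2% on 1453997_a_at, and for Ngfr 54.6% on 1450177_at and 4.9% on 1421241_at. The dimmest probe sets of Nes and Ngfr thus fell within or below the range of the other 3 genes, and the share depended on the probe set.

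The distance of Het from the midpoint of KO and WT was added after the values were seen and uses the KO and WT values by which 5 of the genes were selected, so it is a description with no test. Het lay above the midpoint by 0.92 for Aqp4 (SE 0.07), 0.51 for Lgi2 (SE 0.06) and 0.40 for Gfap (SE 0.09), on the side of WT. For Nes the distance was 0.08 (SE 0.05) on the brightest probe set and -0.27 on 1453997_a_at, and for Ngfr 0.11 (SE 0.04) on the brightest and -0.21 on 1421241_at. For Sox10 and Tubb3 the Het line was above the midpoint by 0.35 and 0.58, on the side of KO for Sox10 and beyond both lines for Tubb3.

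Other genes of the same lineages were read from lists written from textbook knowledge, with 1 probe set per gene and none of the 9 genes in them. A gene was called when its limma adjusted p was below 0.05 and it reached 2-fold. Between KO and WT 2.66% of all genes were called, 1.91% lower and 0.753% higher, and 34.8% passed the adjusted p alone. For Het against WT 0.198% were called and 19.8% passed the adjusted p, and for KO against Het 1.5% were called. The median difference over all genes was -0.02 between KO and WT and -0.0048 between Het and WT.

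Of 14 astrocyte genes, 2 were called lower in KO than in WT and 0 higher, with a median difference of -0.16. Aldoc, a glycolytic enzyme that is abundant in astrocytes, read 8.56 ± 0.042 in KO, 10.18 ± 0.099 in Het and 10.17 ± 0.045 in WT, and fell by 1.62 on the log2 scale in KO against WT (limma adjusted p = 1.8e-08). Apoe, the lipid carrier secreted by astrocytes and also by macrophages, read 11.81 ± 0.058 in KO, 13.11 ± 0.080 in Het and 13.32 ± 0.031 in WT, a fall of -1.51 (limma adjusted p = 1.9e-08). Between Het and WT 1 gene of the list was called, Sparcl1, a secreted matrix protein, which read 9.16 ± 0.011 in KO, 8.22 ± 0.044 in Het and 9.55 ± 0.041 in WT and fell by 1.34 in Het (limma adjusted p = 2.0e-07). Sparcl1 was thus lowest in the Het line, an order that none of Gfap, Aqp4 and Lgi2 showed. Aldoc averaged over its probe sets gave -0.78 in KO against WT.

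Of 12 oligodendrocyte genes, 2 were called lower in KO than in WT and 0 higher, with a median of 0.0066. Pdgfra, the growth factor receptor of oligodendrocyte precursors and also of fibroblasts, read 8.91 ± 0.17 in KO, 10.84 ± 0.049 in Het and 11.46 ± 0.061 in WT, a fall of -2.55 (limma adjusted p = 6.0e-09). Olig1, a transcription factor of the oligodendrocyte lineage, read 6.57 ± 0.11 in KO, 7.70 ± 0.075 in Het and 8.03 ± 0.11 in WT, a fall of -1.46 (limma adjusted p = 2.0e-07). Of the 12 genes, 8 lay above the lowest 40% of probe set means. The myelin genes Cnp and Mbp were among them: Cnp read 10.43 in KO, 10.55 in Het and 10.35 in WT, and Mbp read 7.77 in KO, 7.97 in Het and 8.03 in WT. Olig2, the partner of Olig1 in that lineage, read 4.27 in KO, 4.39 in Het and 4.39 in WT, and the myelin gene Mog read 3.92 in KO, 3.85 in Het and 4.01 in WT, so these 2 were within the range of the Y-linked probe sets.

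Of 11 Schwann cell and satellite glia genes, 2 were called higher in KO than in WT and 0 lower, with a median of 0.21. Past the adjusted p alone 5 were higher and 1 lower. The lower one was Fabp7, with a difference of -0.78 (limma adjusted p = 1.3e-06). Egr2, the transcription factor of myelinating Schwann cells that is also an immediate early gene, read 9.36 ± 0.058 in KO, 8.31 ± 0.049 in Het and 8.24 ± 0.035 in WT, a rise of 1.12 (limma adjusted p = 8.3e-08). Cdh19, a cadherin of Schwann cell precursors, read 9.03 ± 0.055 in KO, 8.57 ± 0.13 in Het and 7.96 ± 0.13 in WT, a rise of 1.07 (limma adjusted p = 3.9e-06) that was 0.99 without the second WT array. Between Het and WT 0 of the 11 reached 2-fold with limma (7 at an unadjusted p below 0.05), 5 passed the adjusted p alone as higher and 1 as lower, and the 2 largest differences were 0.82 for Erbb3, the neuregulin receptor of Schwann cells, and 0.61 for Cdh19. Erbb3 read 8.88 ± 0.058 in KO, 8.92 ± 0.063 in Het and 8.10 ± 0.087 in WT, so its KO minus Het difference was -0.04 (SE 0.06) and both lines lay above WT, as for Sox10.

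None of the 15 neural crest and melanoblast genes was called between KO and WT with limma, 5 passed the adjusted p alone in each direction (10 at an unadjusted p below 0.05), and the median was -0.0015. Ednrb, the endothelin receptor of neural crest cells, was higher in KO by 0.83 (limma adjusted p = 6.0e-06), with 8.87 in KO, 8.53 in Het and 8.05 in WT. Mitf, the transcription factor of melanocytes, was lower by a difference of -0.73 (limma adjusted p = 2.0e-06), with 7.91 in KO, 8.22 in Het and 8.64 in WT. Between Het and WT 0 were called with limma (6 at an unadjusted p below 0.05), and Pax3, a transcription factor of the neural crest and of muscle precursors, had the largest difference, 0.61, with 7.61 in KO, 7.88 in Het and 7.28 in WT.

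Of 20 neuronal genes, 2 were called higher in KO than in WT and 0 lower, with a median of 0.12. Uchl1, a ubiquitin hydrolase abundant in neurons, read 10.55 ± 0.10 in KO, 9.45 ± 0.096 in Het and 9.22 ± 0.061 in WT, a rise of 1.33 (limma adjusted p = 2.0e-07). L1cam, an adhesion molecule of axons and Schwann cells, read 9.36 ± 0.018 in KO, 9.28 ± 0.043 in Het and 8.33 ± 0.15 in WT, a rise of 1.03 (limma adjusted p = 1.8e-06) that was 0.96 without the second WT array and 0.59 averaged over its probe sets. In Het L1cam was above WT by 0.95 (limma adjusted p = 2.2e-05), and by 1.03 without the first WT array. By mean over the 9 arrays 14 of the 20 neuronal genes lay above the lowest 40% of probe sets. Ncam1, an adhesion molecule of many cell types, read 12.38 in KO, 12.38 in Het and 12.06 in WT, and Map2, a microtubule protein of dendrites, read 8.10 in KO, 8.69 in Het and 8.96 in WT. Rbfox3, a nuclear marker of mature neurons, read 7.84 in KO, 7.92 in Het and 7.89 in WT. Snap25, a protein of synaptic vesicle release, read 3.80 in KO, 3.85 in Het and 3.84 in WT and the heavy neurofilament gene Nefh 4.16 in KO, 4.15 in Het and 4.32 in WT, within the range of the Y-linked probe sets.

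Of 15 neural stem and progenitor genes, 1 was called lower in KO than in WT and 0 higher, with a median of -0.03. Sox9, a transcription factor of glial progenitors and of cartilage, read 7.52 ± 0.15 in KO, 8.16 ± 0.14 in Het and 8.53 ± 0.059 in WT, a fall of -1.01 (limma adjusted p = 9.9e-06). That call sat at the 2-fold limit and was lost with quantile normalization (-0.96), with median centring (-0.99), over the mean of the gene's probe sets (-0.87) and without the third KO array (-0.92) or the third WT array (-0.97). Fabp7, a fatty acid binding protein of radial glia and Schwann cell precursors, read 10.64 in KO, 11.48 in Het and 11.42 in WT, and was below Het by -0.84 and below WT by -0.78 in the KO line (limma adjusted p = 1.3e-06 for both). Nes was thus higher in the KO line while Sox9 and Fabp7 were lower. Over the list 4 genes passed the adjusted p alone as lower in KO against WT and 2 as higher. The higher ones were Sox21 and Msi2, by 0.25 each.

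**Figure D3:**
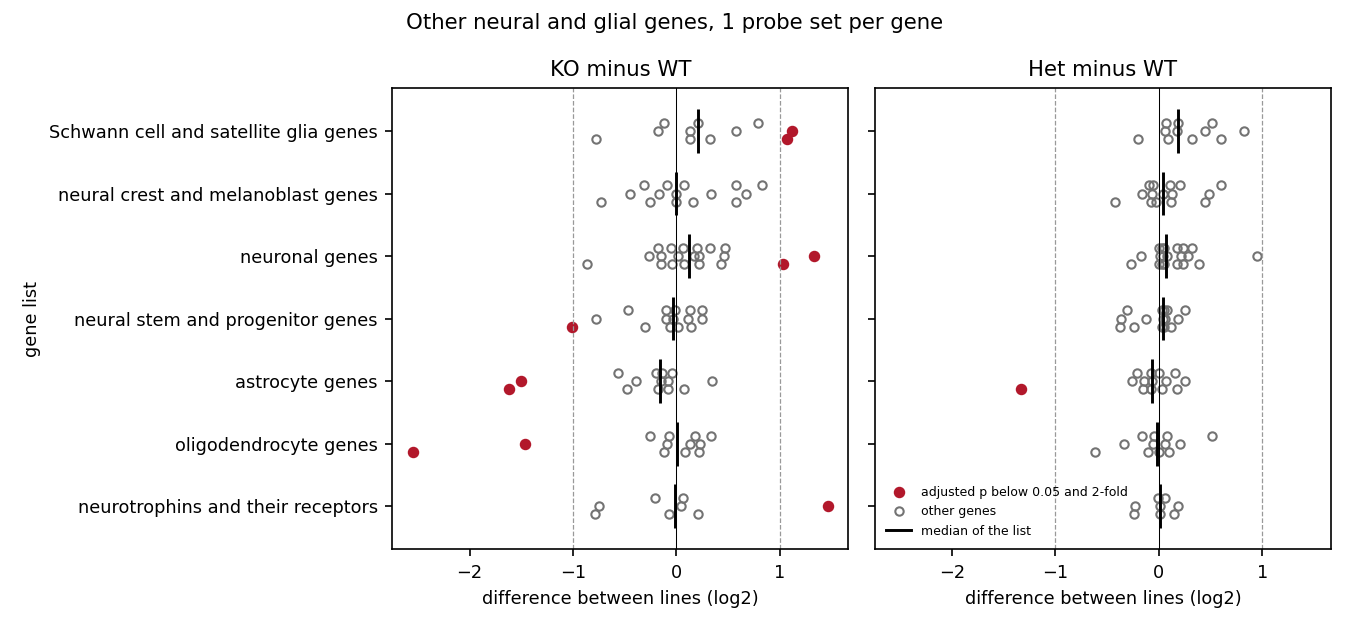
Differences KO minus WT and Het minus WT on the log2 scale for 7 lists of other neural and glial genes, with 1 point per gene. Filled points passed a limma adjusted p below 0.05 and 2-fold, short vertical bars are list medians and dashed lines mark 2-fold. In KO minus WT the called astrocyte, oligodendrocyte and progenitor genes are lower and the called Schwann cell, neuronal and neurotrophin genes are higher, and in Het minus WT only Sparcl1 is called.

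The pathway partners of the 9 genes were read in the same way. Of 8 neurotrophin ligand and receptor genes, 1 was called between KO and WT: Bdnf, the ligand of the receptor Ntrk2 and also of Ngfr, read 10.21 ± 0.030 in KO, 8.94 ± 0.071 in Het and 8.75 ± 0.023 in WT, a rise of 1.46 (limma adjusted p = 1.2e-08). The signalling receptors Ntrk2 and Ntrk3 were lower in KO without reaching 2-fold, by -0.79 and -0.75 (limma adjusted p = 2.3e-05 for both). Ntrk2 read 8.09 in KO, 8.64 in Het and 8.88 in WT, and Ntrk3 read 7.29 in KO, 8.11 in Het and 8.04 in WT. Ngfr and its ligand gene were thus higher in KO while the Ntrk receptors were lower.

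None of the 6 genes for other LGI proteins and their ADAM receptors was called with limma in any comparison (4 at an unadjusted p below 0.05 in KO against WT and 2 in Het against WT). Lgi4, which Schwann cells secrete, read 8.43 ± 0.069 in KO, 8.57 ± 0.063 in Het and 7.98 ± 0.11 in WT, and was higher by 0.45 in KO (limma adjusted p = 4.7e-04) and 0.58 in Het (limma adjusted p = 2.2e-04). Lgi3 was lower in KO by -0.42 and read 5.93 in KO, 6.36 in Het and 6.35 in WT. In KO, Lgi3 thus had the sign of Lgi2 and Lgi4 the opposite sign.

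None of the 13 other aquaporins and proteins that anchor Aqp4 was called between KO and WT with limma (3 at an unadjusted p below 0.05), with a median of -0.02. Dmd, the dystrophin gene, read 8.43 ± 0.11 in KO, 7.39 ± 0.059 in Het and 7.57 ± 0.066 in WT, higher by 0.86 against WT (limma adjusted p = 4.1e-06) and by 1.04 against Het, where it was called. That call was lost over the mean of the gene's probe sets (0.60) and without the first KO array (0.98). Aqp1, the water channel of many epithelia and vessels, was lower by -0.50 in KO against WT, with 8.02 in KO, 8.82 in Het and 8.52 in WT.

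Of 12 other intermediate filament genes, 2 were called higher in KO than in WT and 0 lower, with a median of 0.21. Synm, synemin, which joins nestin and desmin in mixed filaments, read 8.39 ± 0.16 in KO, 7.39 ± 0.15 in Het and 7.05 ± 0.22 in WT, a rise of 1.35 (limma adjusted p = 1.1e-05). Des, the filament protein of muscle, read 11.16 ± 0.0081 in KO, 10.49 ± 0.080 in Het and 10.01 ± 0.035 in WT, a rise of 1.15 (limma adjusted p = 8.0e-08) that was 0.60 averaged over its probe sets. Vim, the main filament of fibroblasts, read 14.71 in KO, 14.63 in Het and 14.60 in WT.

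Of 7 other beta-tubulins, 0 reached 2-fold between KO and WT with limma, and 3 passed the adjusted p alone, all higher (4 at an unadjusted p below 0.05). Tubb2b, which is abundant in developing neurons, read 11.26 in KO, 11.14 in Het and 10.53 in WT, higher by 0.73 in KO and 0.61 in Het (limma adjusted p = 1.5e-06 and 3.4e-05). Of 9 other S100 genes, 0 were called between KO and WT with limma (5 at an unadjusted p below 0.05), and the largest difference was 0.48 for S100a6, which read 13.80 in KO, 13.57 in Het and 13.32 in WT.

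Markers of other cell types moved with the same lines. Of 14 macrophage markers, 13 were called lower in KO than in WT and 0 higher, with a median of -1.77. Their summed level was 14.04 to 14.10 in KO, 15.49 to 15.58 in Het and 15.82 to 15.86 in WT (log2 of the sum of linear values, lowest and highest array), which is the order of Gfap, Aqp4 and Lgi2. Between Het and WT 0 of the 14 were called with limma, and 11 passed the adjusted p alone, all lower. None of the 14 was near the floor, the lowest mean being 6.66 in KO, 7.54 in Het and 7.51 in WT. The part of the macrophage markers in the lower values of Gfap, Aqp4, Lgi2 and Apoe was not tested.

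Of 16 skeletal muscle markers, 9 were called higher in KO than in WT and 0 lower, with a median of 1.11, and their summed level was 12.53 to 12.58 in KO, 11.92 to 12.05 in Het and 11.34 to 11.39 in WT. Of 14 smooth muscle and pericyte markers, 5 were called higher (3 over the mean of each gene's probe sets) and 0 lower, with a median of 0.70 and a summed level of 16.38 to 16.40 in KO, 16.06 to 16.08 in Het and 15.86 to 15.88 in WT. Nestin and desmin are made by both cell types, and both lists had the order of Nes and Ngfr. Des is in both lists, so they are not independent. It had the highest mean of the skeletal muscle list in each line (11.16 in KO, 10.49 in Het and 10.01 in WT). Among the muscle markers Myf5 read 3.82 in KO, 3.78 in Het and 3.89 in WT and Myf6 read 4.33 in KO, 4.26 in Het and 4.15 in WT, within the range of the Y-linked probe sets. The order was not particular to the muscle lists. The summed level of 10 epithelial and mesothelial markers was 10.77 to 10.86 in KO, 10.26 to 10.27 in Het and 10.18 to 10.21 in WT. Of these 10, 2 were called higher in KO than in WT and 0 lower. The part of these cell types in the higher values of Nes and Ngfr was not tested. Of 8 cartilage markers, which include Sox9, 3 were called lower in KO and 0 higher, with a summed level of 13.27 to 13.44 in KO, 13.46 to 13.51 in Het and 13.57 to 13.64 in WT.

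**Figure D4:**
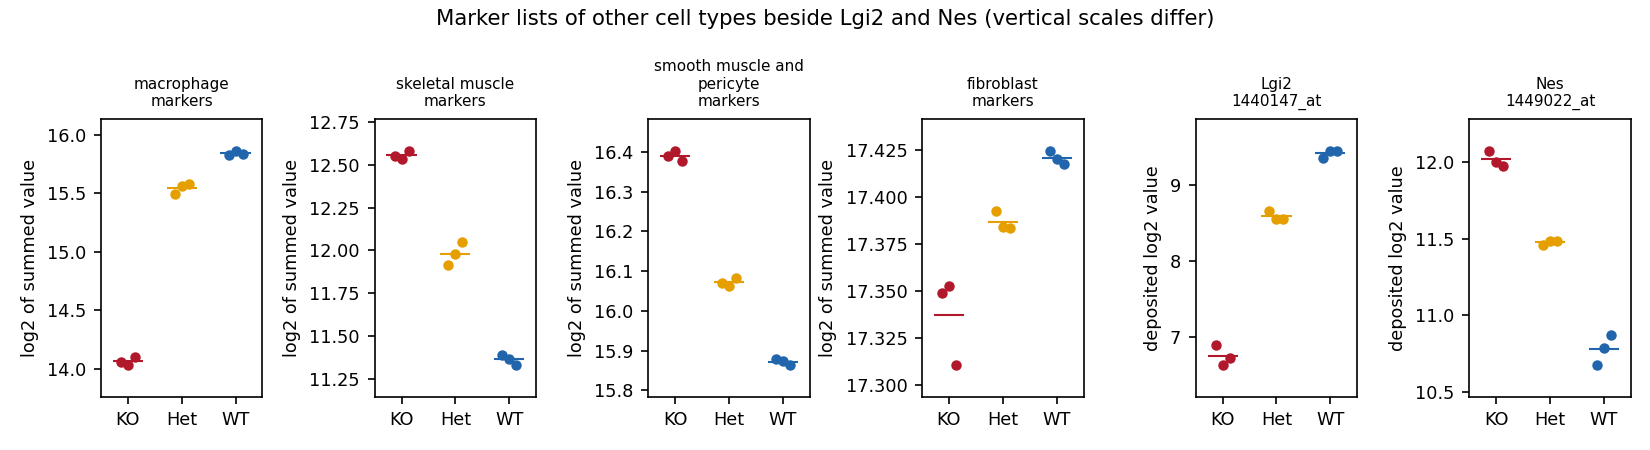
Summed level of 4 marker lists, as the log2 of the sum of linear values, beside the brightest probe sets of Lgi2 and Nes on each array of the KO, Het and WT lines. Bars are means of 3 arrays and the vertical scales differ between panels. The macrophage sum and Lgi2 both stand in the order KO, Het, WT from low to high, and the sums of both muscle lists and Nes stand in the opposite order. The fibroblast sum also stands in the order KO, Het, WT from low to high, within 17.31 to 17.42 over all arrays.

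The genes whose profile lay nearest to each of the 5 genes were found by the root mean square distance between profiles over the 9 arrays, after each profile's own WT mean was subtracted. The arrays of a line share 1 culture, so likeness rests on 3 lines. Gfap was nearest to Pf4 (0.10), Trim30a (0.12), Bst2 (0.13), Fmod (0.13) and Col8a2 (0.14). Aqp4 was nearest to F13a1 (0.13), Fcgr2b (0.15), a less abundant Oga probe set (0.24), Ndufa4l2 (0.26) and Cd68 (0.26). That Oga probe set had a KO minus WT difference of -2.71. The most abundant Oga probe set differed by -5.86 between KO and WT, against -3.03 for the brightest Aqp4 probe set. Lgi2 was nearest to Cd68 (0.10), Mrc1 (0.12), Fcgr2b (0.14), Col9a1 (0.14) and Aqp4 (0.15). Cd68, Mrc1, F13a1 and Fcgr2b are genes of macrophages, and Fmod, Col8a2 and Col9a1 encode matrix proteins. Cd68 read 8.89 ± 0.079 in KO, 10.75 ± 0.065 in Het and 11.52 ± 0.036 in WT.

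Nes was nearest to Tpm1 (0.09), Ccn1 (0.11), Inhba (0.11), Ngfr (0.12) and Slc1a6 (0.13), and Ngfr to Ccn1 (0.06), Card10 (0.06), Pdlim7 (0.06), Slc1a6 (0.07) and Fam89a (0.07). Nes and Ngfr were thus close to each other and shared Ccn1 and Slc1a6 among their nearest genes, while Aqp4 was among the nearest genes of Lgi2. Tpm1 encodes a tropomyosin of the actin cytoskeleton, Ccn1 a matricellular protein and Inhba a subunit of activin.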

How the data were processed

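RNA of 9 arrays, 3 per line, was extracted with Trizol and DNase and biotin-labelled by the Affymetrix procedure, per the labels' protocols. The authors deposited 1 table of 45101 probe sets, whose values from 3.25 to 15.1 are log2 intensities as far as the values show. Per the submitters' processing notes the software was GCOS and Partek. The steps of background correction, normalization and summarization are not given there or in the labels. The values were used as deposited, since the medians of the 9 arrays lay between 6.87 and 6.95.

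The 64 control probe sets were left out, and no filter on low values was used, so that each probe set of the 9 genes was tested. Symbols came from the platform annotation: 34945 probe sets had 1, 932 several and 9160 none. The 45037 probe sets were fitted with limma 3.58.1 in R 4.3.3 (lmFit and eBayes, 3 lines, 9 arrays, Benjamini-Hochberg over all). A probe set was called at an adjusted p below 0.05 and 2-fold. The steps were tested on simulated data. Gene lists, 20 in number with 1 of Y-linked genes, are described by counts and medians. Of each list and comparison spoken of, up to 4 called genes with the largest difference were named, or up to 2 with the largest difference where none was called. Ntrk2 and Ntrk3 in KO, Fabp7 against WT, Sox21, Msi2, Vim, Olig2, Mog, Cnp, Mbp, Ncam1, Map2, Rbfox3, Snap25, Nefh, Myf5 and Myf6 were named after their values were seen. The 9 genes and the lists were chosen with earlier results of these data known. Promoter sequences were matched by Entrez gene identifier for 7 of the 9 genes. Sequence of Aqp4 and Sox10 was not used here. Array replicates share a number only: deviations of arrays with the same number correlated at -0.11 to 0.23, those with different numbers at -0.17 to 0.13. Precision is limited by the number of arrays, and by there being 1 line per genotype. Alternatives covered normalization, filters, probe set choice, fold minimum, variance model, a replicate block and each array left out. Plots were made in Python 3.11.15 with matplotlib 3.10.9.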

Additional observations from a re-analysis of the deposited data

How the results depend on the processing

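Of 1050 values of the 63 differences of the 21 probe sets under the alternatives tried, 1048 kept their side of the 2-fold call. The other 2 were Ngfr 1454903_at in KO against WT, which fell short of 2-fold over the mean of the gene's probe sets (0.72), and Nes 1453997_a_at in KO against Het, which passed it without the third KO array (1.01). Of the called differences, 0 reversed direction. The low-value filters, the variance model, the replicate block and a fit of only the lines compared cannot change the size of a difference. Leaving out an array of the line not compared cannot change it either. In these settings only the adjusted p could move, so the 1048 values are a weaker check than their number implies. Small differences that were not called did change sign in some alternatives. Examples are Ngfr 1421241_at in Het against WT (-0.06 to 0.10) and S100b 1419383_at in KO against WT (-0.0084 to 0.11). The replicate block left the counts at 838 probe sets for KO against WT, 111 for Het against WT and 474 for KO against Het, and at 11, 0 and 7 of the 21. Leaving out each array gave 832 to 846, 105 to 126 and 463 to 497 probe sets, with 11, 0 and 7 to 8 of the 21. With 1 probe set per gene the counts were 484, 36 and 272, of which 5, 0 and 3 were among the 9 genes, and with the mean of a gene's probe sets they were 375, 29 and 209, of which 4, 0 and 3. With a 1.5-fold minimum they were 2552, 1004 and 1854 (14, 9 and 8 of the 21), and with no fold minimum 13038, 9479 and 11975 (19, 15 and 15). Of 114 differences of list genes that the naming rule picked, 14 changed their call in at least 1 alternative. Genotypes of 1 line each and dim probe sets, such as those of Aqp4 in KO, limit every comparison.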
